A study of Mus musculus with 2 samples.

Results

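The 42 genes described here act in mitosis and cytokinesis, from the kinases that start mitosis to the proteins that pinch a cell apart. They were taken by symbol from a list of mitotic entry, spindle checkpoint, kinetochore, spindle motor and cytokinesis genes, and all 42 were found among the 43346 Ensembl genes measured. The cells were erythroblasts, the nucleated precursors of red cells, taken from mouse embryonic liver at day 14.5 by the red cell lineage antigen Ter119, with male and female embryos pooled. The labels name no strain, genotype change or treatment. Poly(A) RNA was sequenced as paired ends in 1 group of 2 libraries, labelled biological replicates 1 and 2 and called library 1 and library 2 here. The labels give both the same donor entry and a biosample each, and p-values measure only how these libraries differ, which may be technical.

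Mitosis begins when cyclin B with the kinase Cdk1, switched on by Cdc25 phosphatases, drives the cell out of G2. Kinetochores then attach chromosomes to spindle microtubules, and the spindle checkpoint holds back the anaphase promoting complex until every chromosome is attached. Cdc20 and later Fzr1 activate that complex, which has securin and the cyclins destroyed, and the central spindle and a contractile ring finish the division. Erythroblasts divide several times as they mature and stop dividing before they expel the nucleus. Many promoters of genes that peak in G2 and mitosis carry a cell cycle homology region, or CHR, downstream of CCAAT boxes, which the factor NF-Y binds.

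The libraries held 51190552 and 44256272 rounded expected counts (14155915 and 12299417 without the globin genes). Levels are in TPM, a share of all transcripts that is corrected for transcript length, so that genes can be compared with each other. Globin genes took 86.0% and 84.4% of TPM, so every level below is a level beside a very large globin pool. The label was checked against markers: all 9 erythroid markers matched passed 1 TPM in both libraries, with Klf1 at 367 and 405 TPM, Gata1 at 37.4 and 48.9 and Slc4a1 at 589 and 762. Some markers of other cells passed 1 TPM in both libraries as well. Hepatocyte markers (2 of 6 past it) summed to 8.46 and 10.4 TPM, with Apoa1 at 6.01 and 8.05 and Alb at 0.76 and 0.59. Leukocyte markers (2 of 5) summed to 5.54 and 7.16, with Mpo at 3.46 and 5.1 and Ptprc at 0.02 and 0.05. The sums were 11.0 and 17.2 for macrophages (3 of 7) and 10.9 and 13.9 for megakaryocytes (2 of 4). Early progenitor markers (6 genes) summed to 1.08 and 0.94 TPM, and endothelial and stromal markers (6 genes) to 0.16 and 0.19, with none past 1 TPM in both libraries. All of these sums except that of the progenitors were higher in library 2, and their part in the results was not tested. In RNA from many cells, fewer dividing cells and less RNA per dividing cell cannot be told apart.

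Promoter sequence is a property that the choice of genes did not use. The CHR and CCAAT motifs are known from genes of this kind, as said above, and motif shares do not depend on the levels measured. RefSeq promoters (250 bases before to 50 after the annotated start, GRCm38.p6) were found for 35 of the 42 genes, 38 promoters in all, since Bub3, Ect2 and Prc1 have overlapping pairs. The 5 upstream stretches printed here cover a pair of activators of the anaphase promoting complex, the pair of B cyclins, and Top2a, which holds many matches. Capitals mark the CHR letters TTTGAA and the CCAAT box on either strand.
Cdc20, chr4:118437344-118437593, strand -: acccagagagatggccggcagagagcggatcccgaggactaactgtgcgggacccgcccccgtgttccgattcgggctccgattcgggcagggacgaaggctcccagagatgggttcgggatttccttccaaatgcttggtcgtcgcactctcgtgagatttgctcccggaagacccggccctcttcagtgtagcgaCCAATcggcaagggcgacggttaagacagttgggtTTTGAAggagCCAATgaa
Fzr1, chr10:81378371-81378620, strand -: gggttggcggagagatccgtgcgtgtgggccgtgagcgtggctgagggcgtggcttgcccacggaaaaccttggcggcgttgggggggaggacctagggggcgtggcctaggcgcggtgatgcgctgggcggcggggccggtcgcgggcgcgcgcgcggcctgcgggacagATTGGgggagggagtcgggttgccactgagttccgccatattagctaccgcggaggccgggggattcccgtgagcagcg
Ccnb2, chr9:70421555-70421804, strand -: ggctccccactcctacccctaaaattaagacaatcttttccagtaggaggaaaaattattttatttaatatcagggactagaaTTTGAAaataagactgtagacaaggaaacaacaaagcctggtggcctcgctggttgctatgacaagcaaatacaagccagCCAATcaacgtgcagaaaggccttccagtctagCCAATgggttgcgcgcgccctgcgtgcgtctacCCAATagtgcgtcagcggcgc
Ccnb1, chr13:100786487-100786736, strand -: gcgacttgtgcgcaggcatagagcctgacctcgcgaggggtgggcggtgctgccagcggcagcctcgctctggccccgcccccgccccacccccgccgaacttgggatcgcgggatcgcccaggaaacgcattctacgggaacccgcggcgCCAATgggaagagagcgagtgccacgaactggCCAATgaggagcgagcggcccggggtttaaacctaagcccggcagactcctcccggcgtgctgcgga
Top2a, chr11:99024190-99024439, strand -: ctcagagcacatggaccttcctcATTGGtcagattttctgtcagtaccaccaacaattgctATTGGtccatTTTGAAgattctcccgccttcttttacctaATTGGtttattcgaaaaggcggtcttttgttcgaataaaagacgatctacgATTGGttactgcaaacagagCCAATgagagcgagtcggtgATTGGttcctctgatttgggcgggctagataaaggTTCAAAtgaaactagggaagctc

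In the Cdc20 stretch a CHR match begins 18 bases before the start, with CCAAT matches 53 and 8 bases before it. The stretch of Fzr1 holds no CHR match and 1 CCAAT match, 79 bases before the start. Ccnb2 has 3 CCAAT matches, at 87, 54 and 21 bases before the start, and besides a CHR match 167 bases before it a further match from base 5 after it, outside the stretch printed. Ccnb1 has 2 CCAAT matches, at 99 and 67 bases, and no CHR match in its window. Top2a, the topoisomerase that untangles sister chromatids, has 6 CCAAT matches and CHR matches 179 and 23 bases before the start.

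TTTGAA or its reverse complement lay in 27 of the 38 promoters (71.1%, Wilson 95% interval 55.2 to 83.0), against 16.0% of 21263 protein-coding promoters and 17.9% of all 32851. Within 50 bases of the start on either side it lay in 24 of 38, or 63.2%, against 3.90% of protein-coding promoters. CCAAT on either strand lay in 29 of 38 (76.3%, 60.8 to 87.0), against 38.2%. Both motifs stood together in 24 of 38 promoters, 63.2%, against 6.38% of protein-coding promoters. GGCGG, the core of a GC element that can neighbour the CHR, lay in 92.1% against 60.6%. Of the erythroid GATA letters, AGATAA lay in 2 of the 38 (5.26%, 1.46 to 17.3), against 9.65% of protein-coding promoters. TGATAA lay in 1 (2.63%, 0.466 to 13.5), against 7.60%. Both intervals include the background share. These are letter matches and not measured binding, the motifs can overlap, and the pairs of promoters of Bub3, Ect2 and Prc1 share their sequence. Counted by gene, 24 of 35 had a CHR match and 26 of 35 a CCAAT match.

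Levels of genes with and without a CHR match overlapped widely. Genes with a CHR match ranged from 0.43 to 38.5 TPM with a median of 5.89 (24 genes), and those without from 0.605 to 74.1 with a median of 1.98 (11 genes). Both the highest member, Fzr1, and the low Nuf2 and Mad2l1 were without it. Birc5, Nuf2, Nusap1, Mad2l1, Pttg1 and Tacc3 had neither motif in the window.

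**Figure D1:**
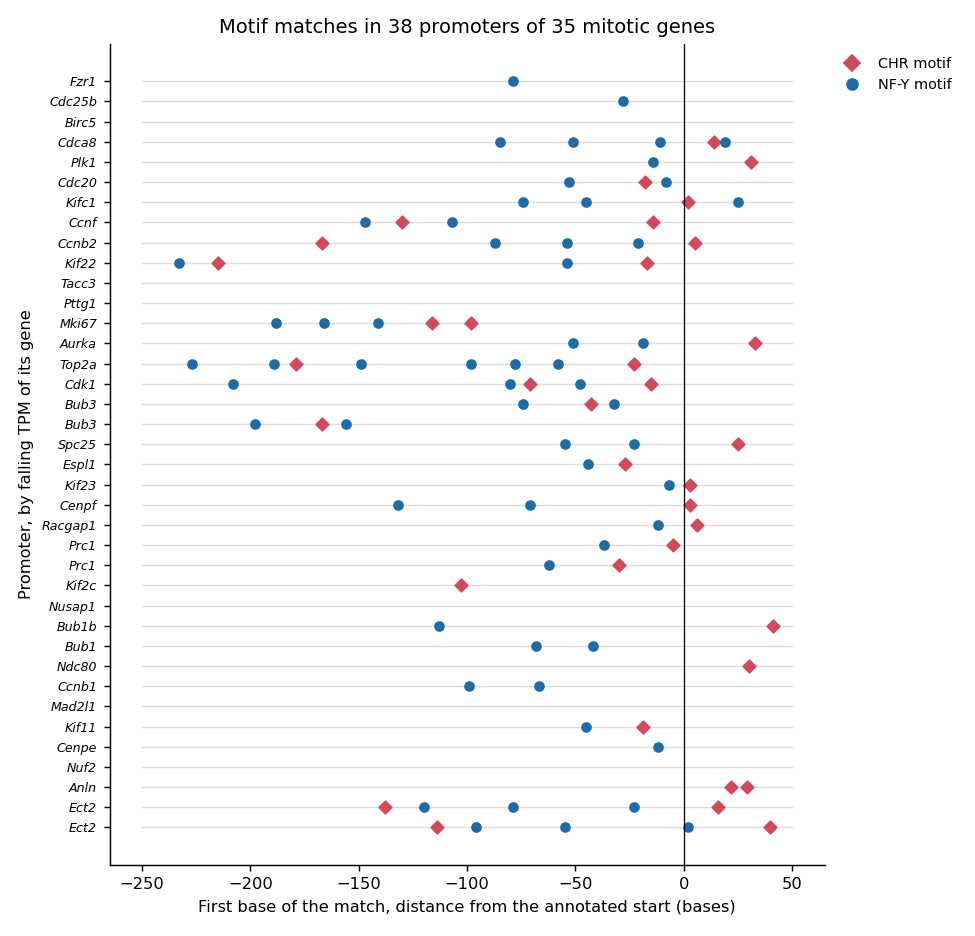
First base of each CHR (diamond) and NF-Y (circle, CCAAT) match relative to the annotated start in 38 promoters of 35 genes, in order of falling TPM. CHR matches gather within 50 bases of the start, where 24 of the 38 promoters hold 1 or more, and CCAAT matches lie mostly before the start.

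Most of the mitotic genes were detected. Of the 42 genes, 35 had 1 TPM or more in both libraries (83.3%), against 20.01% of 21474 protein-coding genes. The median level over the 42 was 5.89 TPM, against 5.02 over the 4296 protein-coding genes that passed 1 TPM. Over the 35 genes that passed, the median of log2(TPM + 1) was 3.19, against 2.57 over those 4296. None of the 42 was at 0, and expected counts ran from 114 to 17912 in library 1 and from 51 to 16867 in library 2. Together they held 0.0575% and 0.0663% of TPM, or 0.411% and 0.426% of the TPM outside the globins. Their mean share of expected counts, where long transcripts weigh more, was 0.224%. The 6 highest genes took 49.4% and 56.3% of the group's TPM.

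**Figure D2:**
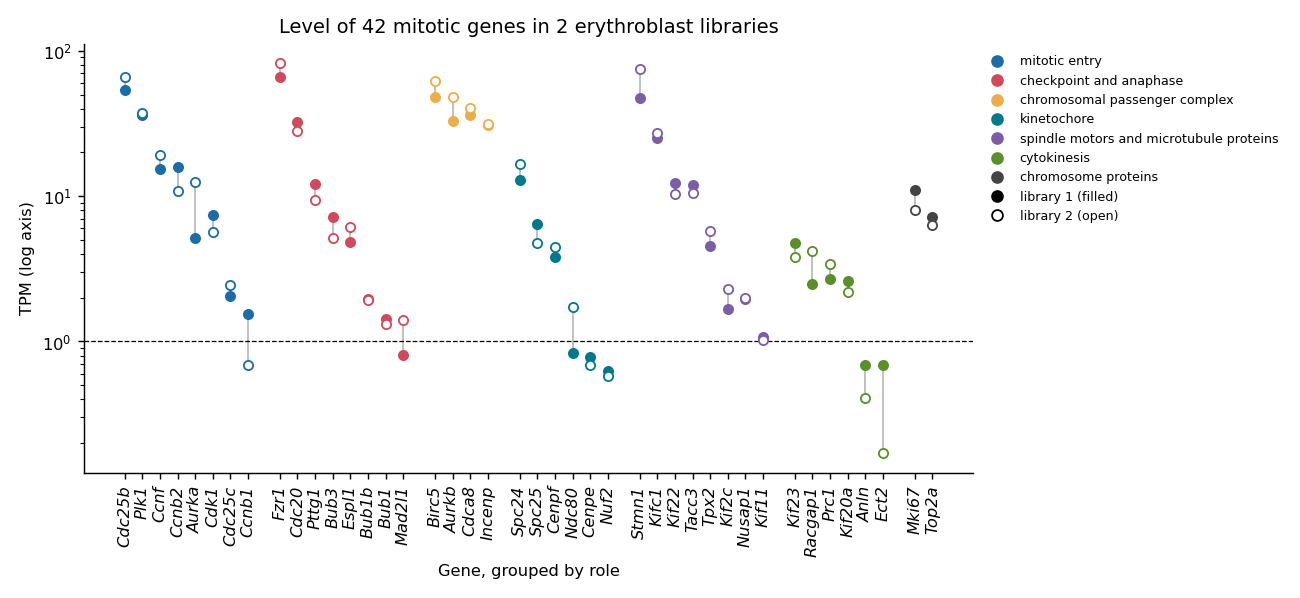
TPM on a log axis of the 42 genes in library 1 (filled) and library 2 (open), grouped by role, with a dashed line at 1 TPM. The chromosomal passenger genes lie between 30.99 and 62.2 TPM, and 7 genes of the entry, checkpoint, kinetochore and cytokinesis groups fall below the line in 1 or both libraries.

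Among mitotic entry genes, whose median was 11.1 TPM, Cdc25b and Plk1 were high and Aurka, Cdk1, Cdc25c and Ccnb1 lay below the median. Cdc25b, the phosphatase that activates Cdk1 at the centrosome (chromosome 2, 131186949 to 131198497, mm10), had 53.5 TPM in library 1 and 65.7 in library 2. Its paralog Cdc25c had 2.06 and 2.46 TPM, so that Cdc25b was 25.98 and 26.7 times higher. Plk1, the polo-like kinase of spindle assembly, had 36.1 and 37.0 TPM, and Ccnf, the F-box protein cyclin F, 15.3 and 19.3.

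The B cyclins differed in the same direction in both libraries. Ccnb2 (chromosome 9, 70407692 to 70421547) had 15.8 and 10.8 TPM. Ccnb1 (chromosome 13, 100778650 to 100786570), the cyclin that carries Cdk1 into the nucleus, had 1.55 and 0.69 TPM, on 280 and 120 counts. Ccnb2 thus stood 10.2 and 15.7 times above Ccnb1, and the ranges did not overlap. Of the 31-base words in Ccnb1 transcripts 27.8% also occur in other genes, mostly in the pseudogene Ccnb1-ps, which was assigned 0 counts in both libraries. Their partner kinase Cdk1 had 7.38 and 5.65 TPM, a level that rests mostly on a short non-coding transcript described below.

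The order of the Aurora kinases depended on the transcripts counted. Aurka, the spindle pole kinase (chromosome 2, 172356190 to 172370535), had 5.18 and 12.5 TPM. Aurkb, the kinase of the chromosomal passenger complex (chromosome 11, 69045647 to 69051664), had 32.9 and 47.8 TPM over all its transcripts, 6.34 and 3.84 times as much. Over protein-coding transcripts alone Aurkb had 7.84 and 9.12 TPM against 5.08 and 12.2 for Aurka, so the order held in library 1 and turned in library 2.

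The chromosomal passenger complex had the highest median of the roles, 39.4 TPM. Its subunits correct faulty attachments and then mark the division site. Birc5, or survivin, had 48.0 and 62.2 TPM, Cdca8, or borealin, 36.4 and 40.6, and Incenp, the scaffold, 30.99 and 31.3. With Aurkb the 4 subunits spanned 31.1 to 55.1 mean TPM, all above 30 TPM in both libraries. With coding transcripts alone Aurkb would lie below the other 3.

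Activators of the anaphase promoting complex stood well above the checkpoint proteins that restrain it. Fzr1, or Cdh1, the activator of late mitosis and G1 (chromosome 10, 81366222 to 81378516), was the highest of all 42 genes with 66.4 and 81.7 TPM (mean 74.1 ± 10.9 SD, n = 2). Cdc20, the activator of metaphase (chromosome 4, 118432901 to 118437352), had 32.2 and 28.2 TPM, so Fzr1 was 2.06 and 2.90 times higher. Over protein-coding transcripts alone Fzr1 had 56.7 and 65.7 TPM, still above Cdc20, and Stmn1 had 46.95 and 75.3. By that measure Fzr1 was highest in library 1 and Stmn1 in library 2. Pttg1, or securin, which blocks separase, had 12.2 and 9.46 TPM, and the separase gene Espl1 4.84 and 6.14.

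The checkpoint proteins were lower and uneven. Bub3, which brings the Bub kinases to kinetochores, had 7.16 and 5.16 TPM. Bub1b, or BubR1, had 1.95 and 1.92 TPM and the kinase Bub1 1.43 and 1.31. Mad2l1, which binds and holds Cdc20 (chromosome 6, 66535390 to 66547220), had 0.81 and 1.40 TPM on 114 and 110 counts. Cdc20 exceeded it by 39.8 and 20.1 times.

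Subunits of the Ndc80 complex, the rod that grips microtubules, were measured at very unequal levels. Spc24 had 12.9 and 16.8 TPM and Spc25 6.48 and 4.75. Ndc80 had 0.83 and 1.73 TPM, and Nuf2 (chromosome 1, 169497934 to 169531464) 0.63 and 0.58. Spc24 was 20.4 and 28.9 times higher than Nuf2. Averaged over annotated transcripts, GC content was 55.8% for Spc24, 44.1% for Spc25, 43.9% for Ndc80 and 42.03% for Nuf2. The leading transcripts had 52.2%, 41.9%, 44.1% and 42.3% in the same order, so that Spc25 was lowest by that measure. Of the outer kinetochore proteins Cenpf had 3.80 and 4.50 TPM, and the motor Cenpe 0.78 and 0.69.

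Spindle proteins ranged from 1.05 to 61.2 mean TPM. Stmn1, or stathmin, which destabilises microtubules (chromosome 4, 134468320 to 134473843), had 47.0 and 75.3 TPM, the second highest mean of the set. The minus-end motor Kifc1 had 25.1 and 27.2 TPM, the chromosome arm motor Kif22 12.2 and 10.3, and the centrosome protein Tacc3 11.9 and 10.5. Tpx2, which activates Aurka, had 4.52 and 5.78 TPM. The depolymerising kinesin Kif2c had 1.66 and 2.31, Nusap1 1.96 and 2.00, and Kif11, the motor that pushes spindle poles apart, 1.07 and 1.03.

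Cytokinesis genes were all low, with a median of 2.73 TPM, close to the 2.72 of the kinetochore genes, and a highest mean of 4.29. The centralspindlin partners Kif23 and Racgap1 had 4.75 and 3.83 TPM, and 2.47 and 4.19 TPM. Kif23 was therefore higher than Racgap1 in library 1 and lower in library 2, and the ranges overlapped. Over protein-coding transcripts alone Racgap1 had 2.06 and 2.71 TPM, below Kif23 in both libraries. Prc1, which bundles the central spindle, had 2.69 and 3.42 TPM and the motor Kif20a 2.61 and 2.20. The ring protein anillin, Anln (chromosome 9, 22332012 to 22389188), had 0.69 and 0.41 TPM. Ect2, which activates RhoA to form the ring (chromosome 3, 27097222 to 27153878), had the lowest mean with 0.69 and 0.17 TPM on 149 and 51 counts, although Nuf2 was lower in library 1 and Anln by posterior mean TPM (0.55 against 0.615).

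The proliferation marker Mki67 had 11.0 and 7.99 TPM and Top2a 7.21 and 6.32. Coding transcripts of Top2a summed to 3.87 and 3.64 TPM. Read totals for Mki67 were large, 10678 and 6051 counts on a transcript of 10075 bases. Over the whole set 15 genes had 10 TPM or more in both libraries. At the low end, Nuf2, Anln, Cenpe and Ect2 were under 1 TPM in both libraries, Ndc80 and Mad2l1 in library 1, and Ccnb1 in library 2. In the order of mean levels, 32 of the 41 neighbouring pairs had library ranges that overlapped, so most adjacent ranks are not separated. The libraries ordered the genes alike, with a Spearman correlation of 0.979 across the 42 genes, which are not independent replicates.

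Levels in the set followed the GC content of the transcripts. Between GC content and level, log2(TPM + 1), Spearman's rho was 0.765 across the 42 genes, as a description of points that share their libraries. Across all 21474 protein-coding genes it was 0.299. Among protein-coding genes past 1 TPM it was 0.227. Of the 11 members under 45% GC, 5 passed 1 TPM in both libraries, and of the 31 at 45% or more, 30 did, with Mad2l1 at 45.1% as the exception. For protein-coding genes the shares past 1 TPM were 9.08% at 40 to 45% GC, 16.6% at 45 to 50%, 25.6% at 50 to 55% and 33.1% at 55 to 60%. In the bin of Fzr1, with 60% GC or more, the share was 27.2%. The median of the 15 genes at 10 TPM or more was 53.6% GC, that of the 7 not detected in both 43.9%. Mean transcript length went with level the other way, at -0.424. The part of GC content in these levels was not tested.

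**Figure D3:**
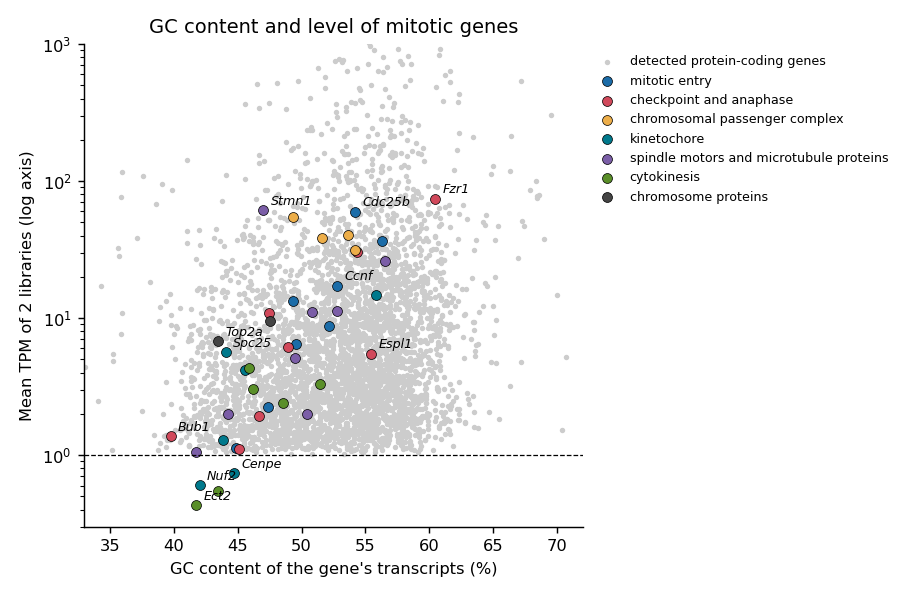
Mean TPM (log axis) against transcript GC content for the 42 genes, coloured by role, over detected protein-coding genes in grey, with a dashed line at 1 TPM. The 4 genes with a mean under the line, Cenpe, Nuf2, Anln and Ect2, have 41.8 to 44.7% GC, and Fzr1 at 60.5% is highest.

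Several levels depended on which transcripts the reads were assigned to. Of the 42 genes, 15 had a single annotated transcript, and of the other 27 the same transcript led by share of TPM in both libraries for 25. In 5 genes the leader was not annotated as protein coding in 1 or both libraries, and the same 5 genes had under 50% of their TPM in coding transcripts in 1 or both. For Cdk1 the 475-base retained-intron transcript Cdk1-204 took 83.9% and 78.6% of TPM, and 53.9% and 49.9% of counts. Coding transcripts of Cdk1 summed to 1.06 and 1.21 TPM, against 7.38 and 5.65 for the gene.

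Aurkb was led by the 393-base processed transcript Aurkb-206 with 39.1% and 39.9% of TPM, although the coding Aurkb-201, of 1950 bases, took 54.8% and 46.8% of its counts. In Bub1 the 586-base retained-intron transcript Bub1-203 took 54.0% and 62.4% of TPM while the coding Bub1-201 held 85.6% and 81.5% of counts. Mad2l1-203, a retained-intron form of 1680 bases, took 53.6% and 41.2% of TPM and 57.0% and 61.8% of counts. Ect2 changed leader: in library 1 the nonsense-mediated decay form Ect2-205 led with 39.96%, and in library 2 the coding Ect2-202 took 100%, on 51 counts. Cenpf also changed leader by TPM, from the 11130-base Cenpf-204 to the 358-base Cenpf-202, whereas by counts Cenpf-204 held 95.7% and 93.8%. Counted on coding transcripts alone, 34 of the 42 genes passed 1 TPM in both libraries.

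**Figure D4:**
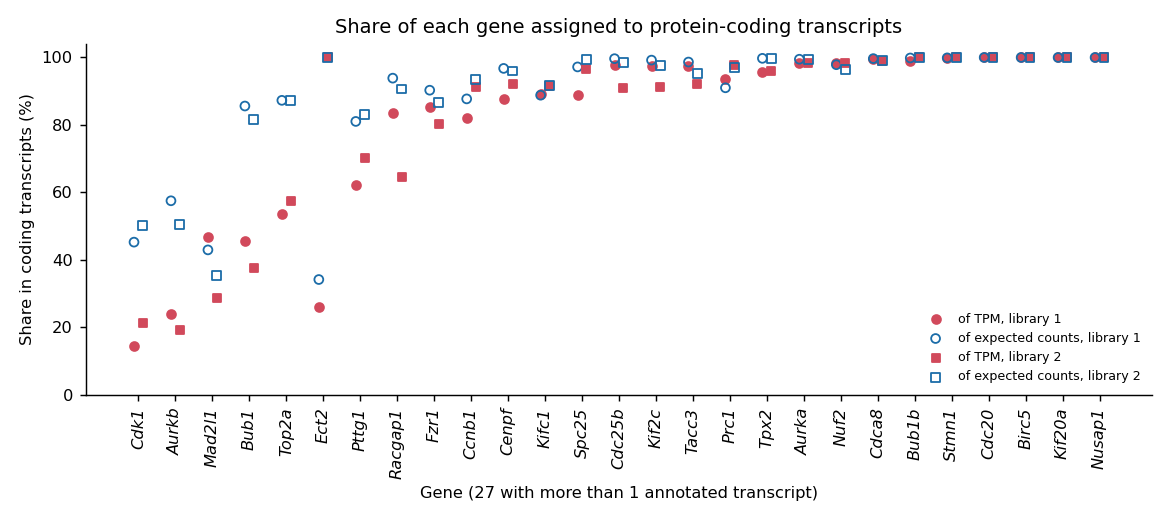
Share of each gene assigned to protein-coding transcripts, by TPM (red) and by expected counts (blue, open), in library 1 (circles) and library 2 (squares), for the 27 genes with more than 1 annotated transcript. Cdk1, Aurkb, Mad2l1, Bub1 and Ect2 fall under 50% of TPM in 1 or both libraries, and for Bub1 the share of counts stays above 80%.

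Reads shared with other genes bear on part of the set, and 9 of the 42 genes share 10% or more of their 31-base words. Counts were whole numbers (within 0.01) for 40 of the 42, the exceptions being Stmn1 and Kifc1. Of the 31-base words of Kifc1 57.2% occur in other genes, chiefly Kifc5b, which was assigned 1760 and 1676 counts beside 4049 and 3671 for Kifc1. In Stmn1 22.4% are shared, chiefly with Gm11223 (253 and 220 counts). Cdc20 (26.7%) and Plk1 (18.7%) share words mostly with the pseudogenes Gm7856 and Plk-ps1, at 0 counts in both libraries. Kif20a shares 26.7% with its overlapping neighbour Cdc23 (329 and 293 counts), and the strand setting of the counting was not found in the labels. Cdc25c shares 13.3%, mostly with Gm3550 (3 and 0 counts), and Prc1 12.5%, mostly with Rccd1 (79 and 39 counts). Ndc80 shares 10.7%, and Ccnb1 27.8% as given above. The levels of these genes may be affected by this sharing, by an amount that was not tested.

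The libraries were then compared gene by gene, with an exact conditional binomial test on scaled counts and Benjamini-Hochberg adjustment over 10955 genes. With 1 library on each side this compares the libraries and not conditions. Of the 42 genes 35 passed the threshold of 0.05 (83.3%), against 44.9% of all genes tested and 58.9% of those with 200 or more counts in both together. In library 2, 14 were higher (background 22.9%) and in library 1, 21 (background 22.0%). Deep counts let the test call small differences: Fzr1 passed at 1.08-fold (95% exact interval 1.06 to 1.10, adjusted p = 5.68e-12). By size, 3 of 42 were 2-fold or more apart, 7.14%, against 18.0% of genes tested and 2.95% of those with 100 or more counts in each library.

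Higher in library 2 by the largest ratios were a spindle pole kinase and a kinetochore subunit. Aurka had 876 and 1655 counts, a 2.17-fold difference (interval 2.00 to 2.36, binomial test, adjusted p = 4.64e-79). Ndc80 had 168 and 272 counts, 1.86-fold (1.53 to 2.27, adjusted p = 1.58e-09). Stmn1 followed at 1.42-fold (1.36 to 1.49, adjusted p = 3.64e-54), Racgap1 at 1.40-fold (1.24 to 1.57, adjusted p = 1.24e-07) and Kif2c at 1.19-fold (1.04 to 1.36, adjusted p = 0.0271).

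The 5 largest ratios in favour of library 1 were those of Ect2, Ccnb1, Anln, Ccnb2 and Bub3. Ect2 was 2.55-fold higher there (1.84 to 3.57, adjusted p = 9.74e-09), Ccnb1 2.03-fold (1.64 to 2.54, adjusted p = 1.95e-10) and Anln 1.91-fold (1.58 to 2.31, adjusted p = 1.99e-11). Ccnb2 was 1.63-fold higher (1.52 to 1.75, adjusted p = 4.68e-41) and Bub3 1.55-fold (1.42 to 1.70, adjusted p = 3.44e-21). Mki67 was 1.54-fold higher in library 1 (1.49 to 1.59, adjusted p = 2.06e-160). Cdca8, Kifc1, Cdc25c, Nusap1, Bub1b, Mad2l1 and Kif11 did not pass. For Mad2l1 the interval of the library 2 to library 1 ratio ran from 0.845 to 1.45, so its counts are compatible with no difference and with any ratio in that range.

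The median log2 ratio of library 2 over library 1 was -0.15 over the 42 genes and -0.0012 over all genes tested. In TPM, with a pseudocount of 1, the group's median was 0.017 and that of all genes 0.040. The sign of the group's median thus depends on the unit, while it lay below that of all genes in both. For the 15 genes with a single transcript the TPM ratio was a median of 1.12 times the ratio of scaled CPM (1.11 to 1.13). Plk1, Incenp, Cdca8, Cenpf and Nusap1 were lower in library 2 by scaled CPM and higher by TPM. When a difference was called from the authors' deposited TPM intervals not overlapping, 26 of 42 genes were apart, 15 higher in library 2 and 11 in library 1, against 31.4% of genes tested.

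The ratio also moved with GC content. Its Spearman correlation with GC content was 0.375 over the 42 genes and 0.195 over tested protein-coding genes, both descriptions. Medians by bin were -0.32 for the 10 members at 40 to 45% GC and -0.28 for the 15 at 45 to 50%, against 0.06 for the 11 at 50 to 55% and 0.12 for the 4 at 55 to 60%. All protein-coding genes went from -0.12 to 0.06 over the same bins. With folds centred on the median of their GC bin, 2 of the 42 were 2-fold or more apart in place of 3 (17.4% of genes tested), with Aurka at 1.99 and Ndc80 at 2.12. Of Ect2 and Ccnb1, both 2-fold apart without centring, only 1 remained so. The direction of Cdc25b, Kifc1 and Nusap1 turned with that centring.

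**Figure D5:**
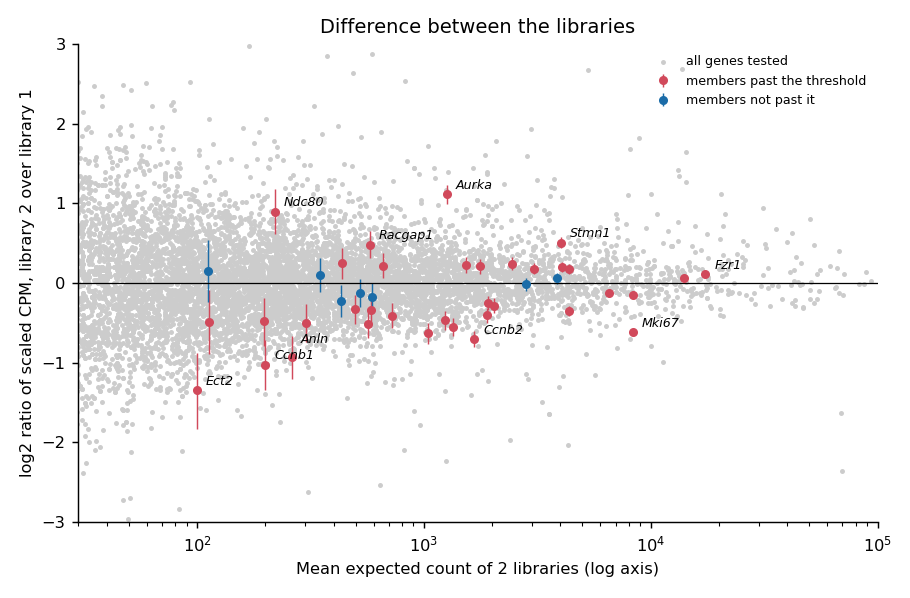
log2 ratio of scaled CPM, library 2 over library 1, against mean expected count (log axis) for the 42 genes with 95% exact intervals for counting error, over all genes tested in grey, of which a few beyond the axis are not drawn. Aurka lies highest of the members at 2.17-fold and Ect2 lowest, at 2.55-fold in favour of library 1.

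Other mitotic genes were counted on a separate list of 123. Past 1 TPM in both libraries were 77 of 123, 62.6%, with a median of 2.10 TPM, and 79 of 121 tested differed between the libraries (65.3%, against 44.9% of all genes tested and 58.9% of those with 200 or more counts), 37 higher in library 2 and 42 in library 1. Among partners of the anaphase promoting complex 14 of 17 passed 1 TPM, led by its ubiquitin-conjugating enzymes Ube2s (210 and 270 TPM) and Ube2c (182 and 179), then Anapc11 (13.1 and 21.7), with Anapc10 at 0 and 1 counts. Both enzymes stood above every member of the main set. A set of 43 S phase genes had 35 past 1 TPM, 81.4%, with a median of 6.70 TPM, and 27 of 43 differed between the libraries, 62.8% against the same backgrounds, 16 higher in library 2.

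Kinetochore and centromere genes beyond the set gave 19 of 29 past 1 TPM. Cenpa, the centromeric histone, had 52.2 and 54.3 TPM, Pmf1, of the Mis12 complex, 38.6 and 45.7, and Cenpb 28.2 and 36.1, while Cenpk had 0.27 and 0.13. Of the entry regulators 10 of 16 passed, led by Ccna2 (53.7 and 37.96 TPM), the Cdk1-inhibiting kinase Pkmyt1 (34.98 and 45.9) and Cks2 (22.8 and 51.9), with Lin54 at 0.21 and 0.12. Condensin and cohesin genes gave 9 of 17, led by Ncapd2 (82.8 and 113 TPM), Ncaph2 (17.5 and 22.5) and Smc4 (17.0 and 19.5), with Pds5b at 0.13 and 0.29.

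Other checkpoint genes were low, as were those of the main set. Of 11 only 5 passed, with Mad1l1 at 3.99 and 3.54 TPM, Mad2l1bp at 1.40 and 4.65, Zwilch at 2.02 and 2.47, and the checkpoint kinase Ttk at 0.18 and 0.16. Spindle and centrosome genes gave 11 of 22, led by Spag5 (25.3 and 26.3 TPM), Tubg1 (23.1 and 27.9) and Numa1 (18.8 and 26.8). Cep55, which recruits the abscission machinery, had 0 counts in both libraries. Other cytokinesis genes gave 9 of 11, with Ccdc124 at 62.0 and 66.5 TPM, Chmp4b at 19.99 and 17.9, Rhoa at 13.3 and 15.9, and Shcbp1 at 0.14 and 0.10.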

How the data were processed

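RNA from 1 group of 2 erythroblast libraries was analysed from tables per gene and per transcript. Alignment was to mm10 with GENCODE M4, per the file listing deposited with the tables; the sources used here do not name the aligner, quantifier or strand setting. The authors deposited expected counts, in which reads matching several genes are divided, and TPM, FPKM and posterior mean TPM, with an interval on each TPM. The deposited percent of a gene's TPM per transcript gave the transcript shares. Symbols came from a table of gene names (42462 of 43346 genes matched), and positions, transcript types and GC content from GENCODE M21 of the same assembly. The GC content of a gene was the unweighted mean over its annotated transcripts. The promoters came from RefSeq, GRCm38.p6.

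Expected counts were rounded, scaled with edgeR's TMM factors (0.996 and 1.00; edgeR 4.0.16, R 4.3.3), and compared by a two-sided exact conditional binomial test over genes with at least 10 counts summed over the libraries. edgeR's quasi-likelihood test has no residual degrees of freedom for 1 library against 1. Medians and correlations of log ratios used a pseudocount of 1 CPM, while folds, their intervals, the plot of ratios and the 2-fold count used none; intervals cover counting error only. The biological coefficient of variation was 0.241. The test was tried on simulated counts with counting error alone. That trial cannot show how the test behaves at the spread between these libraries. Detection meant 1 TPM or more in both libraries, and transcript shares needed 50 counts in each. Alternatives used DESeq2 1.42.0 size factors, other totals, filters, units and pseudocounts. Members, lists and tests were chosen with earlier results of these data known. The rule named all members, with values in both libraries for the 6 highest and lowest, the 5 largest ratios each way, paralogs and complexes; intervals and adjusted p-values went to those 10 ratios, and those of Fzr1, Mki67 and Mad2l1 and the genes given positions were picked after their values were seen. Of the other lists the 3 highest and the lowest were named. The marker Ahsp was not matched. Other steps used Python 3.11.15, numpy 2.4.6, pandas 2.3.3, scipy 1.17.1 and matplotlib 3.10.9.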

Additional observations from a re-analysis of the deposited data

How the results depend on the processing

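The number of genes past the level threshold was 35 and stayed within 1.5 times of that (34 to 42) for FPKM, posterior mean TPM, 0.5 TPM, a count of 10, coding transcripts and each library alone (36 and 37); at 5 TPM it was 21. The share of TPM (0.0619% on average) was 0.0575% to 0.0663% in single libraries, 0.418% outside the globins and 0.224% by expected counts. The median level of 2.77 on log2(TPM + 1) was 2.75 to 2.77 in single libraries, 2.56 with a pseudocount of 0.1, 3.53 in FPKM, 3.19 over detected members and 2.59 over coding transcripts. The number of genes differing between the libraries was 35 or 36 under every scaling and filter tried, and 26 by TPM intervals, of which 11 were higher in library 1 in place of 21. The median log2 ratio was -0.16 to -0.14 with other scalings, filters and a pseudocount of 0.1, and -0.12 with GC centring, an alternative added with the TPM intervals and coding transcripts after the data were seen. In TPM it was 0.017, and the cause was not tested beyond the 1.12-fold factor given above. The number of genes 2-fold apart was 3 (Aurka, Ect2 and Ccnb1). With GC centring it was 2: Ndc80 was now among them, Aurka no longer, and only 1 of Ect2 and Ccnb1 remained. With a pseudocount of 1 CPM, alone or with GC centring, it was 1 (these alternatives were added after the data were seen). GC centring turned the library 2 to library 1 ratio of Cdc25b from 1.04 to 0.949 (0.980 with the pseudocount), of Kifc1 from 1.04 to 0.985 and of Nusap1 from 0.918 to 1.05. Kif11 passed the threshold with DESeq2 size factors (adjusted p = 0.0386) and with 100 or more counts in both together (adjusted p = 0.0471). The correlation of GC content with level was 0.750 to 0.789 in single libraries and 0.730 by CPM. On 1 strand only, TTTGAA lay in 52.6% of member promoters, CCAAT in 50% and TGATAA in 0%, and their backgrounds fell to 9.06%, 21.6% and 3.93%. No paired analysis was possible because there is 1 group, and leaving out a library leaves no comparison of the libraries. Counts of 51 to 280 limit what can be said of Ect2, Nuf2, Mad2l1, Ndc80 and Ccnb1.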
